A study of Homo sapiens and Homo sapiens
Mus musculus and Mus musculus with 9 samples.

Results

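The 10 genes described here are the YAP/TEAD effectors and target genes ANKRD1, CCN1, CCN2, AMOTL2, AJUBA, LATS2, YAP1, WWTR1, TEAD1 and F3, out of 41713 genes in the deposited table. They were taken by gene symbol, and the set was chosen because ANKRD1 differed strongly between the cultures in earlier results of these data, so every value of ANKRD1 below is a description and carries no test. The RNA-Seq covered 3 cultures of wild-type cells in alpha-MEM with serum: the human prostate cancer cell line C4-2B alone (3 libraries), C4-2B mixed with the mouse pre-osteoblast line MC3T3-E1 (3 libraries, 30 MC3T3-E1 cells for each C4-2B cell in the mixed co-culture), and MC3T3-E1 alone (3 libraries, not analysed here). The paper describes the C4-2B cells of its co-cultures as labelled with green fluorescent protein, so wild-type here does not exclude that label. The purpose of the comparison was to find the human genes whose level differs when the cancer cells lie among osteoblasts. Mouse reads therefore had to be removed first. The authors did so with 3 pipelines, Xenome and XenofilteR (which sort reads by species) and Kallisto (which assigns reads to transcripts of both species at once).

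YAP1 and WWTR1 (also called TAZ) are coactivators that do not bind DNA themselves and act through the TEAD transcription factors, of which TEAD1 is one. When the Hippo kinases are active, LATS1 and LATS2 phosphorylate YAP1 and WWTR1, which then stay in the cytoplasm or are degraded. When cells spread on a stiff matrix the coactivators enter the nucleus, and ANKRD1, CCN1, CCN2, AMOTL2, AJUBA, LATS2 and F3 are among the genes they are known to activate. AMOTL2, AJUBA and LATS2 also act back on the pathway.

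For each gene and pipeline the table gives the authors' mean normalised count, which is the mean over the 6 libraries of C4-2B alone and of the co-culture of reads divided by a size factor (a measure of depth). It joins both cultures and by itself shows no difference between them. With Xenome and XenofilteR this mean is a sum of whole reads, so the reads of each of the 6 libraries could be solved for ANKRD1, CCN2, AMOTL2, WWTR1 and F3. For ANKRD1, CCN2 and F3 only 1 sum matched the mean. For WWTR1 372 sums and for AMOTL2 1970 sums matched the Xenome mean, and the sum closest to a XenofilteR solution was taken. The intervals of WWTR1 and AMOTL2 do not cover this choice. CCN1, AJUBA, LATS2, YAP1 and TEAD1 had too many reads to be solved and are given by their means. The solved libraries carry no names. They are lettered A to F from the deepest to the shallowest, none was matched to a culture, and no mean over a group or test between groups was made. Depth here means the reads kept as human after mouse reads were removed. It is not the reads sequenced, which were at least 40 M in every library. The size factors of A to F with Xenome were 5.93, 5.31, 4.86, 0.427, 0.145 and 0.109. One read therefore added 0.169 to the normalised value of library A and 9.18 to that of library F, and a gene without reads in library F could still have had a normalised value of up to 27.6 by the floor of 3 reads used here for a count of 0. The 95% interval of 0 reads is wider and reaches 3.69 reads. All intervals below are 95% intervals of counting error alone, without the spread between cultures.

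The promoters of ANKRD1 and CCN2 are shown because TEAD factors are known to bind the 6 letters GGAATG, which were searched on both strands, and these promoters held more copies than those of the other genes of the set with an entry. The sequences are the 250 bases before the RefSeq transcription start (GRCh38.p14), printed 5′ to 3′ on the transcribed strand, with each copy in capitals. ANKRD1 lies at chr10:90921088-90921337 (minus strand) and CCN2 at chr6:131951373-131951622 (minus strand).
ANKRD1: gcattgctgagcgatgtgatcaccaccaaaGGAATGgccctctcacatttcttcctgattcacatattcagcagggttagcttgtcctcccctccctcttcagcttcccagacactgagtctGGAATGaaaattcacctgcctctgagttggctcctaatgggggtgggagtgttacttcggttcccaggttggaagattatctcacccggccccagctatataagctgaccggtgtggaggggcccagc
CCN2: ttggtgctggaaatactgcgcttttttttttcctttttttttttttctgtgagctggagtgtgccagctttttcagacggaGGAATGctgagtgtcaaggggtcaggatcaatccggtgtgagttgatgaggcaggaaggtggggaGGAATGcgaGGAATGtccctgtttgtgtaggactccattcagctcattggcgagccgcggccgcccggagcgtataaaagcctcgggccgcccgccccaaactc

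ANKRD1 held 2 copies, which began 220 and 128 bases upstream of the start. CCN2 held 3 copies, at 169, 104 and 95 bases upstream. In the full window of 250 bases before to 50 after the start, 14% of 35116 promoters held the letters on either strand, 1.37% held at least 2 copies and 0.13% at least 3. Of the other genes, YAP1 held 1 copy (162 bases upstream), LATS2 held 1 (10 bases downstream), and AMOTL2 and AJUBA each held 1 at the second of their 2 listed starts. WWTR1 and F3 held none in this window, and CCN1 and TEAD1 had no entry. In all, 6 of 11 entries held a copy, from 6 of the 8 genes with an entry. A match is a description of the sequence and not a measured site.

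**Figure D1:**
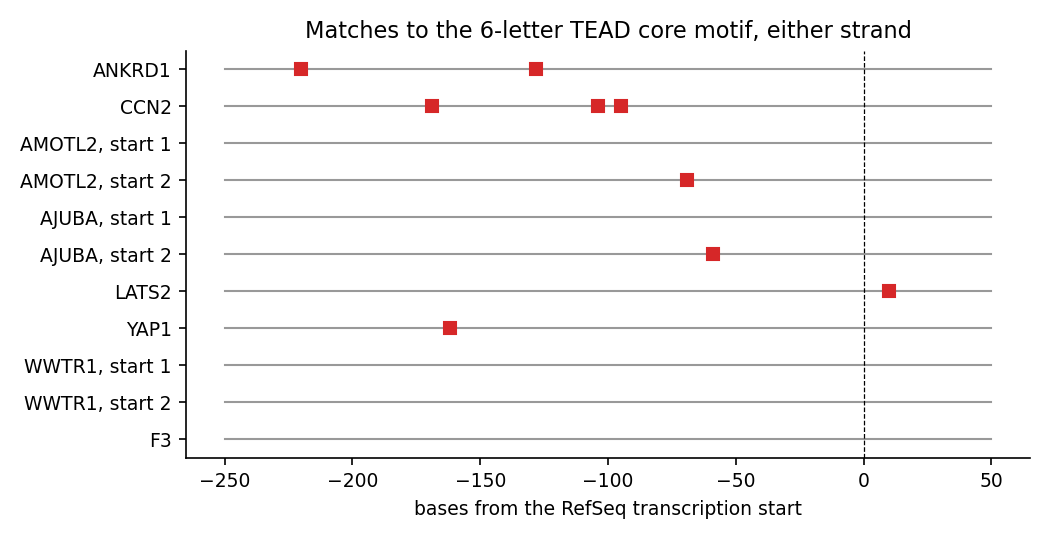
Position of each match to GGAATG on either strand (red squares) in the 300-base promoter windows of 8 genes, in bases from the transcription start (x axis). CCN2 has 3 matches and ANKRD1 has 2, while WWTR1, F3 and the first starts of AMOTL2 and AJUBA have none.

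The effectors YAP1 and TEAD1 were the most abundant of the 10 genes. Per kilobase of exon (merged exons, GENCODE release 44), the Xenome mean was 1073 (interval 1055 to 1092) for YAP1 and 427 (418 to 436) for TEAD1. LATS2, the kinase that restrains YAP1, followed with 187 (179 to 195). AJUBA, a LIM protein that binds LATS kinases, had 176 (168 to 184), and CCN1, a secreted matrix protein, had 161 (152 to 170). The intervals of LATS2 and AJUBA overlapped, as did those of AJUBA and CCN1. AMOTL2, an angiomotin that holds YAP1 at cell junctions, had 50.1 (46.3 to 53.9), ANKRD1 had 39.6 (35.8 to 43.3) and WWTR1 had 27.7 (25 to 30.3). CCN2, the connective tissue growth factor and close relative of CCN1, had 0.860 (0.652 to 1.07). F3, tissue factor, which starts blood clotting, had 0.0760 (0.0196 to 0.132). With Kallisto the mean, before division by exon length, was 13 for F3 and 2.34 for CCN2. The places of F3 and CCN2 therefore hold for the read sorters only. Apart from the overlaps named, the pooled means of neighbours in this order were separated by more than counting error. The place of ANKRD1 came from pooling unlike libraries, and the order of AMOTL2, ANKRD1 and WWTR1 was found in none of the 6 libraries. Per kilobase, ANKRD1 was at 81.8, 64.1 and 67.0 in libraries A, B and C, where AMOTL2 was at 48.7, 63.1 and 61.2, and only in A did their intervals not overlap. In D, E and F ANKRD1 was at 1.31, 7.72 and 15.4, below WWTR1 at 30.6, 24.8 and 31.9, and only in D did their intervals not overlap. YAP1 was thus at a far higher level than its paralogue WWTR1, and CCN1 far higher than CCN2. Against protein-coding genes above 0 ranked in the same way, YAP1 stood at percentile 90.2, TEAD1 at 75.1, ANKRD1 at 42.4, WWTR1 at 39.7, CCN2 at 18 and F3 at 5.95.

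For 9 of the 10 genes the Kallisto mean was 0.975 to 1.16 times the Xenome mean. ANKRD1 (chromosome 10, 90912096 to 90921276, GRCh38) had a mean of 70.8 with Xenome, 70.5 with XenofilteR and 79.2 with Kallisto. CCN1 (chromosome 1, 85580761 to 85583950) had 595, 588 and 581, and CCN2 (chromosome 6, 131948176 to 131951372) had 2.01, 1.95 and 2.34. AMOTL2 (chromosome 3, 134355874 to 134375479) had 324.7, 324.6 and 333. Of these 4 targets, CCN2 had the largest ratio of Kallisto to Xenome (1.16), followed by ANKRD1 (1.12).
AJUBA (chromosome 14, 22971177 to 22982551) had 1035, 1040 and 1077, and LATS2 (chromosome 13, 20973036 to 21061586) had 1051, 1051 and 1056. YAP1 (chromosome 11, 102110447 to 102233424) had 6772, 6795 and 7444. WWTR1 (chromosome 3, 149517235 to 149736714) had 231, 233 and 227, and TEAD1 (chromosome 11, 12674421 to 12944737) had 4572, 4558 and 4622. Among the effectors, only the Kallisto mean of YAP1 lay outside the counting interval of its Xenome mean (6655 to 6889). For ANKRD1 the Kallisto mean was also just outside (64.1 to 77.5), and 1.12 times the Xenome mean.
F3 (chromosome 1, 94529173 to 94541759) was the exception. Both read sorters put its mean at 0.219, and Kallisto put it at 13, a Kallisto ratio to Xenome of 59.2.

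**Figure D2:**
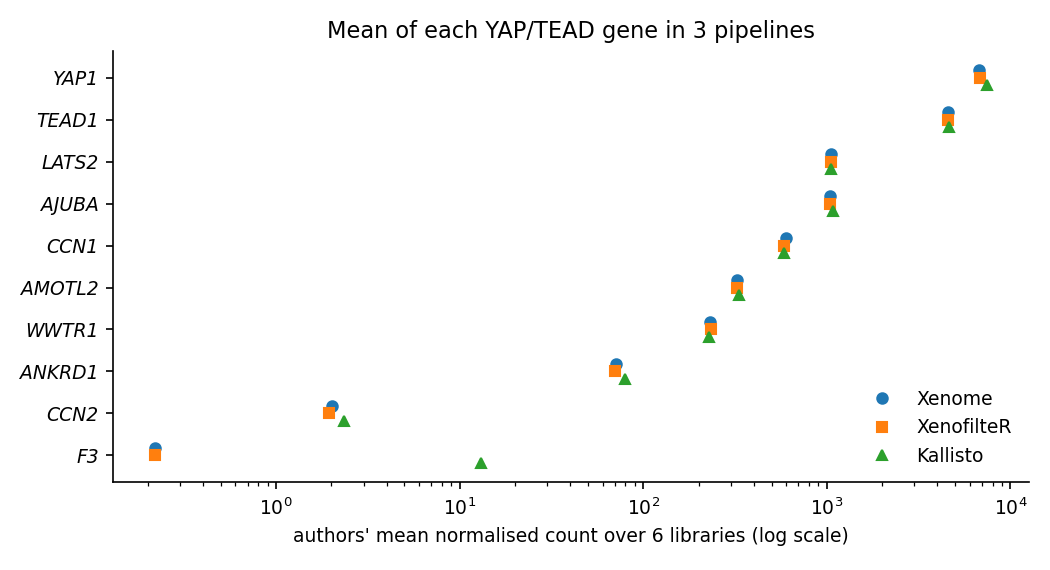
Authors' mean normalised count over 6 libraries (x axis, log scale) of each of the 10 genes (y axis) with Xenome (circles), XenofilteR (squares) and Kallisto (triangles). The symbols lie close together for every gene but F3, which is at 0.219 with both read sorters and at 13 with Kallisto.

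F3 was thus the 1 gene of 10 with a Kallisto mean at least 2 times the Xenome mean. Of all 17858 genes above 0 in both, 18.1% passed that ratio. The share depended on the level, with 8.76% among 13364 genes with a Xenome mean of at least 10 and 48.5% among 2149 genes with a mean below 1, where F3 lies. None of the 8 genes of the set with a mean of at least 10 passed it. Among genes with a mean of at least 10 the median ratio was 1.022, and the 8 genes had a median of 1.018. Of the distinct 31-base stretches of F3 transcripts, 0.0344% (1 of 2908) also occurred in mouse transcripts, against a median of 0.502% over protein-coding genes. TEAD1 shared the most of the 10 genes with mouse (4.94%), then CCN2 (4.38%), and ANKRD1 shared 2.22%. The part that shared sequence plays in the means was not tested.

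**Figure D3:**
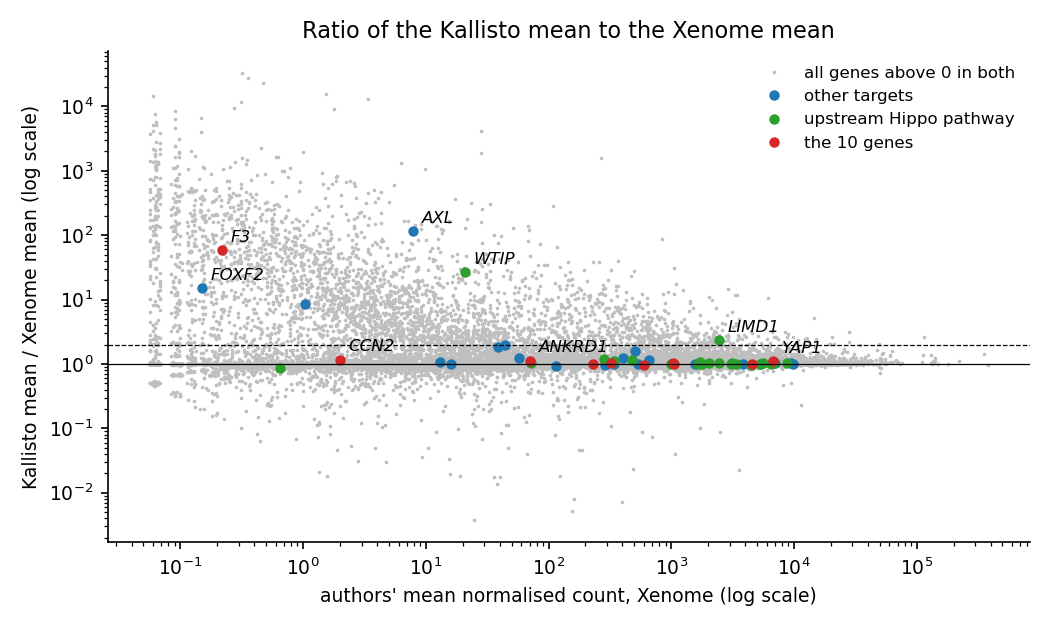
Ratio of the Kallisto mean to the Xenome mean (y axis, log scale) against the Xenome mean (x axis, log scale) for all genes above 0 in both (grey), the 10 genes (red), upstream Hippo genes (green) and other targets (blue), with lines at ratios of 1 (solid) and 2 (dashed). F3 stands at 59.2 among low genes, where many grey points are as high, and the other 9 genes lie between 0.975 and 1.16.

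ANKRD1, a muscle ankyrin repeat protein and a commonly used readout of YAP activity, had the widest range over libraries, as highest over lowest value, among the 3 solved genes with reads in every library (ANKRD1, WWTR1 and AMOTL2). With Xenome it had 868 reads in library A, 610 in B, 583 in C, 1 in D, 2 in E and 3 in F. Divided by the size factors these were normalised values of 146 (interval 137 to 156), 115 (106 to 124), 120 (110 to 130), 2.34 (0.0593 to 13.1), 13.8 (1.67 to 49.9) and 27.6 (5.68 to 80.5). Libraries A, B and C were high and D, E and F low, and no interval of the first 3 reached one of the others. XenofilteR gave 858, 610, 584, 1, 2 and 3 reads, the same picture. The highest value was 62.5 times the lowest, although the lowest rests on 1 read.

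On the scale of log2(normalised value + 0.5), the highest and the lowest library of ANKRD1 lay 5.69 apart. Of 2976 solved genes with a mean within 2 times that of ANKRD1, 59 (1.98%) had a spread as large or larger, and the median spread was 1.18. ANKRD1 is the gene the set was selected on, so its place among these genes is no independent result.

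**Figure D4:**
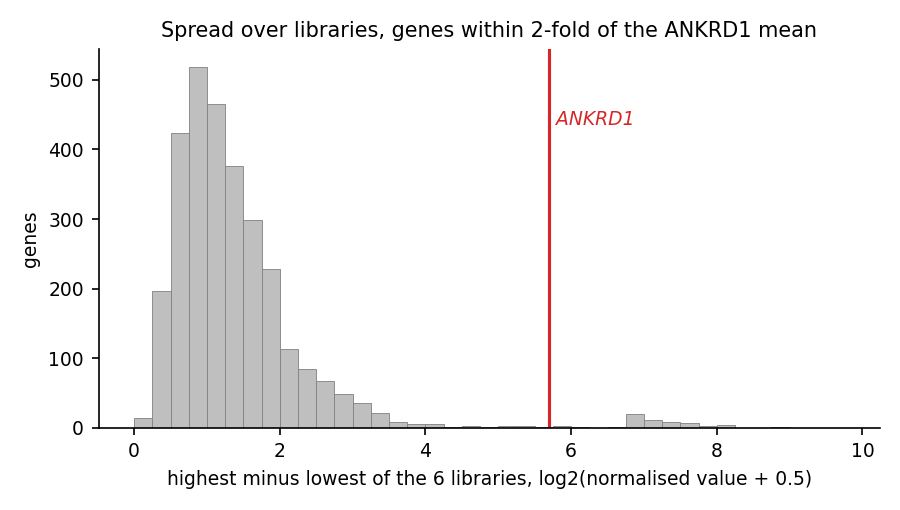
Number of genes (y axis) by the difference between the highest and the lowest of 6 libraries in log2(normalised value + 0.5) (x axis), for 2976 genes with a mean within 2 times that of ANKRD1. ANKRD1 (red line, 5.69) lies beyond most genes, whose median is 1.18, and a small group of genes lies above it.

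WWTR1, the coactivator, had a flatter profile. Its reads were 933 in library A, 1297 in B, 1242 in C, 109 in D, 30 in E and 29 in F, which gave normalised values of 157 (interval 147 to 168), 244 (231 to 258), 255.5 (242 to 270), 255.5 (210 to 308), 207 (140 to 296) and 266 (178 to 382). Library A was the lowest, below B, C, D and F by more than counting error, and its interval overlapped that of E. The intervals of libraries B to F overlapped each other. The highest value was 1.69 times the lowest. The spread of 0.757 was close to the median of 0.760 for 1795 solved genes with a mean within 2 times that of WWTR1. Genes with a mean above 350 were not solved, so the upper part of that range is missing.

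AMOTL2, a target that is also an inhibitor of YAP1, had 1870, 2174, 1926, 93, 35 and 40 reads in libraries A to F. The normalised values were 316 (interval 301 to 330), 409 (392 to 427), 396 (379 to 414), 218 (176 to 267), 242 (168 to 336) and 367 (262 to 500). By more than counting error, library D was below A, B and C, and both A and E were below B and C. The interval of F overlapped those of all other libraries. The highest value was 1.88 times the lowest. Of 1134 solved genes with a mean within 2 times that of AMOTL2, 31% had a spread at least as large. Genes with a mean above 350 were not solved, so most of that range above AMOTL2 is missing. Unlike ANKRD1, AMOTL2 did not have all of A, B and C above all of D, E and F.

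**Figure D5:**
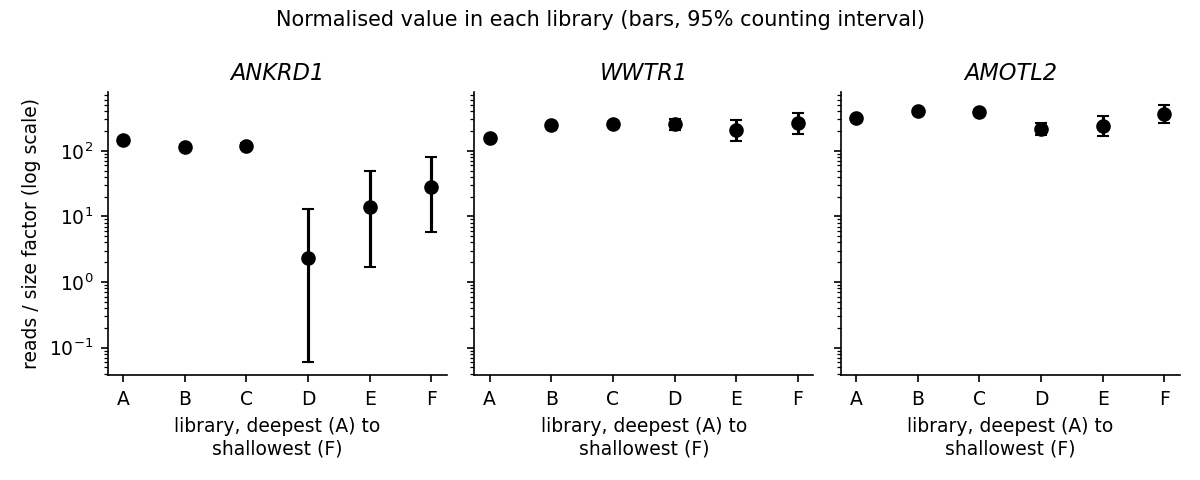
Normalised value (reads divided by the size factor, y axis, log scale) of ANKRD1, WWTR1 and AMOTL2 in libraries A to F (x axis, deepest to shallowest), with 95% counting intervals as bars. ANKRD1 is at 115 to 146 in A, B and C and at 2.34 to 27.6 in D, E and F, while WWTR1 stays between 157 and 266 and AMOTL2 between 218 and 409.

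CCN2 and F3 had few reads in every library. CCN2 had 29 reads in library A, 25 in B, 12 in C and 0 in D, E and F, with normalised values of 4.89 (interval 3.28 to 7.03), 4.70 (3.04 to 6.95) and 2.47 (1.27 to 4.31) in the first 3. At a single level, D would have held 1.68 reads, E 0.569 and F 0.428, so no difference was detectable at the depth of these libraries. By the floor of 3 reads, a count of 0 allowed normalised values of up to 7.03, 20.7 and 27.6, and the 95% intervals reached 8.65, 25.5 and 33.9. XenofilteR gave 27, 25, 12, 0, 0 and 0 reads. F3 had 1 read in A, 5 in B, 1 in C and 0 in D, E and F with both read sorters, 7 reads in all, and no difference between libraries was detectable at this depth.

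The genes whose profile over the 6 libraries was most like that of ANKRD1, by the root mean square difference of centred log2(normalised value + 0.5), were CYP1A1 (0.322), CCDC74B (0.638), the long non-coding RNA ENSG00000237934 (0.830), TTC16 (0.835) and SHC2 (0.875). The median over 8510 solved genes with a mean of at least 10 was 2.08. CYP1A1, a cytochrome P450 enzyme induced through the aryl hydrocarbon receptor, had 1289, 1084, 855, 2, 4 and 3 reads. Each of the 5 had at most 4 reads in each of D, E and F, so single reads set their values there. The ranking is a description and does not show that these genes vary together. None of the 5 belongs to the Hippo lists below.

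Of 23 upstream Hippo genes, 22 had a Xenome mean of at least 10, and the median Xenome level per kilobase was 274 over the list, against 96.2 over all protein-coding genes above 0. TAOK1, a kinase that activates the Hippo kinases, had the highest mean (8798, and 515 per kilobase), and the protocadherin FAT4 the lowest (0.643, and 0.0302 per kilobase). Kallisto gave at least 2 times the Xenome mean for 2 of 23, both with a Xenome mean of at least 10. That ratio was passed by 8.76% of all genes with such a mean, so nothing is read from the count. The 2 were WTIP (20.9 against 557, a ratio of 26.6) and LIMD1 (2446 against 5677, a ratio of 2.32). Both are LIM proteins of the AJUBA family, and AJUBA itself had a ratio of 1.04. WTIP had 223, 163, 143, 6, 2 and 0 reads in libraries A to F, and AMOTL1, the paralogue of AMOTL2, had 2072, 2358, 2569, 69, 37 and 32 reads, normalised values of 350, 444, 528, 162, 255.5 and 294. By value, AMOTL1 and WTIP had all of A, B and C above all of D, E and F. WWC2 did not (normalised values of 82.2, 90.1, 82.7, 35.2, 104 and 36.7). For WTIP, the 95% interval of 2 reads in E reaches 49.9, above its 37.6, 30.7 and 29.4 in A, B and C. AMOTL1 had 32 reads in F. The 95% interval of fewer reads there (29, for WWTR1) already reaches 382, above the 350 of AMOTL1 in A. No order is therefore read from WTIP or AMOTL1. AMOTL1, WTIP and WWC2 were the upstream genes with a mean of at least 10 that could be solved. Of the 8511 solved genes with such a mean, 18% had all of A, B and C above all of D, E and F.

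Of 7 TEAD partners (TEAD2, TEAD3, TEAD4 and the VGLL cofactors), 5 were above 0 with Xenome. The highest mean was that of VGLL4, a repressive cofactor (1613, and 224 per kilobase), with a Kallisto ratio of 2.21. VGLL3 had 4.39 with Xenome, 11.3 with XenofilteR and 146 with Kallisto. TEAD4 had 1214, TEAD3 had 796 and TEAD2 had 354 with Xenome. Per kilobase, the Xenome level of TEAD4 was 534, the level of TEAD1 was 427, that of TEAD3 was 261 and that of TEAD2 was 119.

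Of 20 other known YAP/TEAD targets, 17 had a Xenome mean of at least 10. The highest Xenome mean was that of IGFBP3 (9885, and 2163 per kilobase), a secreted binding protein of insulin-like growth factors. BIRC5 (9511 with Xenome) was higher per kilobase (2493), with XenofilteR (10147.5 against 9880) and with Kallisto (9945 against 9847). Kallisto gave at least 2 times the Xenome mean for 3 of 20, against 18.1% of all genes above 0 in both. Among these 3 were AXL (7.93 against 923, a ratio of 116) and FOXF2 (0.1503 against 2.26). The XenofilteR mean of FOXF2 was 1.34, against which the Kallisto ratio was 1.69, and its Xenome mean rests on 2 reads in A and 3 in B. AXL, a receptor tyrosine kinase, had 60, 21, 28, 3, 3 and 0 reads in libraries A to F, normalised values of 10.1, 3.95, 5.76, 7.03, 20.7 and 0. The values of D, E and F rest on at most 3 reads and give no order. Of the 8 solved targets with a mean of at least 10 (MYOF, CRIM1, FJX1, NT5E, ARHGEF17, RBMS3, TNS3 and EDN1), none had all of A, B and C above all of D, E and F. That order was found in 18% of all solved genes with such a mean, so nothing is read from the 0 of 8. MYOF, a membrane repair protein, had normalised values of 46.7, 51.2, 60.9, 68.0, 41.4 and 73.5, and CRIM1 of 104, 106, 109, 162, 117 and 91.8. EDN1, endothelin, had 20.6, 14.9, 21.2, 7.03, 13.8 and 18.4.

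The labelled cell type was checked with prostate epithelial markers, whose means ranged from 4603 (TMPRSS2) to 51038 (KLK3) over 10 genes with Xenome. Osteoblast markers were checked for the other cell type of the co-culture. COL1A2, a collagen of osteoblasts, had 1 read in library A, 0 in B and C, 12 in D, 19 in E and 12 in F, and PRRX1, a mesenchymal transcription factor, had 1, 1, 0, 36, 24 and 24. Of the 3 solved osteoblast markers with a mean of at least 10, these 2 had normalised values in D, E and F all above those in A, B and C, an order found in 8.41% of all solved genes with such a mean. By value, COL3A1 (394, 321, 270, 12, 5 and 2 reads) had the opposite order, found in 18%, but 5 and 2 reads in E and F are too few for an order. The other 8 solved markers had means below 10, too few reads for an order. SP7, for example, had 15, 7, 10, 0, 0 and 0 reads. XenofilteR gave at least 2 times the Xenome mean for 3 of 15 osteoblast markers (COL1A2, COL3A1 and POSTN), against 0.686% of all 38914 genes above 0 in both and 0.188% of 19176 genes with a Xenome mean of at least 10, and for 0 of the 10 YAP/TEAD genes, whose ratios ran from 0.971 (CCN2) to 1.01 (WWTR1). The means of the 15 osteoblast markers ranged from 0.0970 (LUM) and 0.103 (ALPL) to 411 (RUNX2), 3384 (COL1A1) and 40055 (FN1). With so low a share over all genes, nothing is read from the 0 of 10. A ratio between the read sorters also cannot show mouse reads that both keep. The part of mouse reads in the values of the 10 genes was not tested.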

How the data were processed

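Total RNA (500 ng) was made into stranded mRNA libraries and sequenced as paired 50 bp reads to at least 40 M reads per library. Per the study's methods, the authors separated the species in 3 ways. Xenome sorted the reads before HISAT2 alignment to GRCh38, and XenofilteR compared HISAT2 alignments to GRCh38 and GRCm38, both followed by FeatureCounts. Kallisto used an index of both transcriptomes. Versions were not given in the sources used here. The authors then ran DESeq2, and the deposited table holds, per gene and pipeline, the mean of counts divided by size factors over the 6 libraries of C4-2B alone and the co-culture. Its other columns are the authors' own comparison (log2 fold changes with standard errors, test statistics, p-values and adjusted p-values) and were not used. The number of unused per-sample columns was 0.

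Of 41734 rows, 21 listed a gene again and were dropped. Whole reads per library were solved from the 15 digits of the Xenome and XenofilteR means: the value of 1 read of each library was found from low genes, and each mean was written as a sum of whole reads within 0.65 of its last digit. Where several sums matched, the pair of Xenome and XenofilteR solutions closest to each other was taken if it lay clearly nearer than the next. All 18070 genes with a mean below 6, all 1944 with a mean from 6 to 10 and 8511 of 9030 genes (94.3%) with a mean from 10 to 350 were solved. The solver was tested on simulated reads in which the pipelines were made to differ little. That test does not show how the choice by closeness fares where they differ more. The Kallisto means are not sums of whole reads. Libraries carry no names in this table, so they stayed without a group and no test was run. For genes that were not solved the reads per library are unknown, and their intervals assume 1 level in all libraries. Intervals are 95% Poisson intervals (exact for reads, normal with the solved or assumed reads for means), and the floor is 3 reads. The labels do not say whether libraries of a culture came from separate cultures.

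The 10 genes, the gene lists and the rules were chosen with earlier results of these data known. Genes named are all 10 members, in each list those with the highest mean and the largest pipeline ratios (some more were named after their values were seen), and the 5 genes with the profile most like ANKRD1. The values of 1 list gene are not reported here. Exon lengths came from GENCODE release 44, shared 31-base stretches from GENCODE releases 44 and M21 (either strand), and promoters from RefSeq (GRCh38.p14, 8 of 10 genes matched). Alternatives were the other pipelines, a tolerance of 6.5 last digits, another scaling, and other gene sets. The work was done in Python 3.11.15 with scipy 1.17.1, pandas 2.3.3, matplotlib 3.10.9 and numpy 2.4.6.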

Additional observations from a re-analysis of the deposited data

How the results depend on the processing

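The libraries had no group here, so no direction between cultures could change. Counting error is largest in the 3 shallow libraries, and it limits their values and the means over libraries, and leaving out a replicate was not run because no library was matched to one. No paired analysis was possible because the solved libraries carry no replicate number. All 10 means with XenofilteR and 7 of 10 with Kallisto lay within the counting interval of the Xenome mean. The exceptions with Kallisto were ANKRD1 (79.2), YAP1 (7444) and F3 (13), and the cause was not tested. The 18 XenofilteR read counts of ANKRD1, CCN2 and F3, each solved from that pipeline alone, lay within the interval of the Xenome count. The other 12, of WWTR1 and AMOTL2, were chosen by the closeness of the pipelines and are no check. A wider tolerance (6.5 of the last digit of a mean) gave the same reads for the 24 values of ANKRD1, CCN2, WWTR1 and F3, and for AMOTL2 the same reads came out nearest but no longer alone, so it gave no value there. Scaling by the reads of all solved genes kept 29 of 30 normalised values within their intervals, with AMOTL2 in library C at 375. With XenofilteR in the denominator all 10 ratios stayed within the interval. With no filter on low means, the percentile of the ratio was 62.7 for YAP1 and 96.6 for F3, and the other 8 stayed within the interval. Percentiles by mean, not used above, fall by construction with fewer low genes. Among protein-coding genes only they were 36.4 for ANKRD1, 51.7 for CCN1, 15.8 for CCN2, 45.7 for AMOTL2, 59.4 for AJUBA, 59.7 for LATS2, 92.5 for YAP1, 43.3 for WWTR1 and 87.4 for TEAD1. Among genes with a mean of at least 10 they were 30.5 for ANKRD1, 53.3 for CCN1, 46.3 for AMOTL2, 61.3 for AJUBA, 61.6 for LATS2, 93.0 for YAP1, 43.0 for WWTR1 and 88.2 for TEAD1. Over all genes above 0 they had been 66.0, 77.1, 73.7, 81.1, 81.2, 96.6, 72.1 and 94.2 in that order.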

Other observations

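The 6 solved libraries fell into 2 clusters by the depth of reads kept as human. Size factors were 5.93, 5.31 and 4.86 in libraries A, B and C and 0.427, 0.145 and 0.109 in D, E and F. The normalised values of ANKRD1 fell the same way, at 146, 115 and 120 against 2.34, 13.8 and 27.6. Of 8511 solved genes with a mean of at least 10, 1536 (18%) had all of A, B and C above all of D, E and F, and 716 (8.41%) had the opposite order. Among the 2976 genes with a mean within 2 times that of ANKRD1 the first order was found for 566 (19.0%). Among the upstream Hippo genes AMOTL1 and WTIP had it by value and WWC2 did not (82.2, 90.1, 82.7, 35.2, 104 and 36.7). WTIP rests on 6, 2 and 0 reads in D, E and F. The counting interval of AMOTL1 in F reaches above its value in A, so no order is read from AMOTL1 or WTIP. Of the osteoblast markers, COL1A2 (0.169, 0, 0, 28.1, 131 and 110) and PRRX1 (0.169, 0.188, 0, 84.4, 166 and 220) had the opposite order. By value COL3A1 had the first (66.5, 60.4, 55.5, 28.1, 34.5 and 18.4), but on 5 and 2 reads in E and F, too few for an order.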
